A study of Mus musculus with 2 samples.

Results

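The heterogeneous nuclear ribonucleoproteins (hnRNPs) are abundant RNA-binding proteins that coat nuclear transcripts and act in splicing, export, stability and translation of mRNA. The transcripts of 10 abundant mouse hnRNP genes are described here: Hnrnpa1, Hnrnpa3, Hnrnpab, Hnrnpd, Hnrnpf, Hnrnph1, Hnrnpk, Hnrnpl, Hnrnpm and Hnrnpu. The genes were chosen by name, and every listed position in one of their exons on the same strand was taken. All 10 had listed positions, among 10912 annotated genes that did, and they held 294 of the 160384 listed positions in exons. The modification is N6-methyladenosine (m6A), which the methyltransferase Mettl3 with its partners deposits on adenosines, mostly within the motif RRACH (R stands for a purine and H for any base except G). Several hnRNP proteins are themselves known to bind RNA near m6A, but here only their mRNAs are concerned.

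The study set mouse 129 embryonic stem cells that are wild-type (WT) beside Mettl3 knockout (KO) cells and read their poly(A) RNA by Nanopore direct RNA sequencing (DRS), with 1 library per condition and no replicates. In the KO cells, CRISPR-Cas9 had been used to put puromycin and hygromycin resistance genes in the place of Mettl3 exons 5 to 7 on both alleles, and the number of colonies behind the KO library was not given in the sources used here. Of the 10 tools, 7 came with separate lists for WT and for KO (ELIGOS, Epinano, m6Anet, MINES, Nanom6A, Tombo and xPore), while the lists of DiffErr, DRUMMER and Nanocompore, 1 for each tool, resulted from comparing the libraries. The 17 lists hold positions with no score, rate or read number, so the depth behind a position is unknown. The methods of the study set a minimum number of reads for a site to be tested, a higher one for m6Anet, and a position that is not listed may have had fewer. What the KO list of xPore, a tool that compares samples, stands for was not stated.

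The labels were read first at Mettl3, where WT lists held 13 positions and KO lists 5. The replaced exons held 2 of the WT positions and 0 of the KO positions. Each of exons 1 to 4, which were not replaced, also had WT positions and 0 KO positions. These few counts therefore do not mark the replaced exons. All 8 embryonic stem cell markers examined (Pou5f1, Sox2, Nanog, Zfp42, Esrrb, Klf4, Dppa5a and Tdgf1) had listed positions in both libraries.

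The question put to these genes was which of their listed positions were listed again in KO. The study used the KO cells as a control deficient in m6A, so a KO listing is a call made by a tool and not a measure of m6A without Mettl3. Most positions did not leave the lists in KO. Of the 294 positions, 269 (91.5%) were in a WT list, against 80.4% of all listed positions on genes, and 248 (84.4%) were in a KO list, against 67.1%. Both kinds of list held 223 positions (75.9%), against 47.5%, 46 (15.6%) were in a WT list and in no KO list, against 32.9% over all genes, and 25 (8.50%) were in KO lists only, against 19.6%. Thus 82.9% of the WT positions were in a KO list of some tool (95% Wilson interval 77.9% to 86.9%), against 59% over all genes. The intervals cover counting error only, positions of a gene are not replicates, and no test between the libraries was possible.

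**Figure D1:**
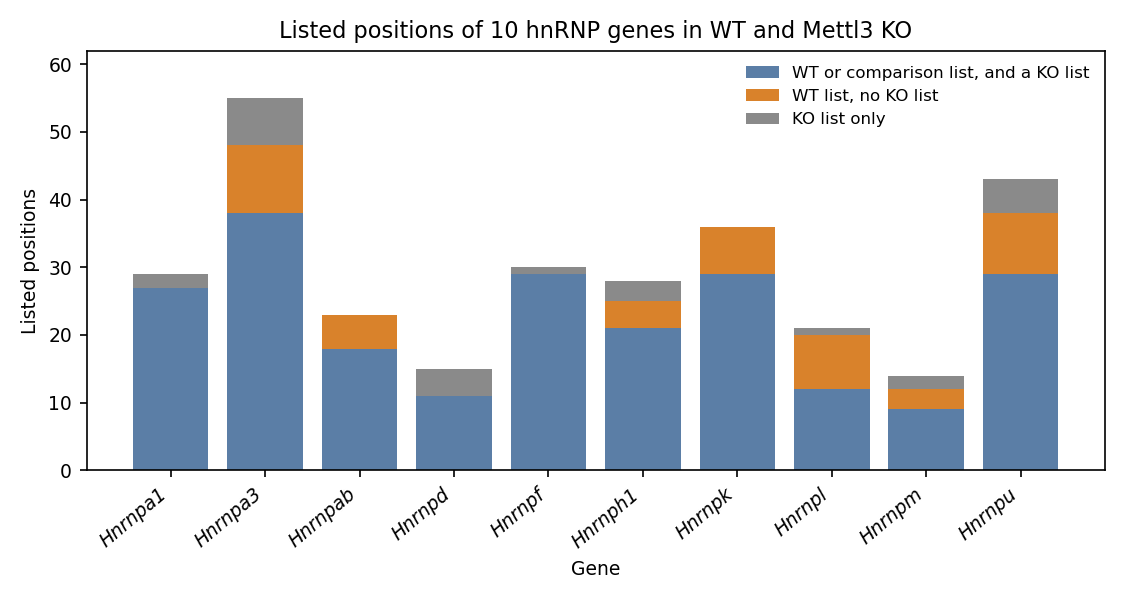
Number of listed positions (vertical axis) in each of the 10 genes (horizontal axis), split into positions of WT or comparison lists that a KO list shared, positions in a WT list and no KO list, and positions in KO lists only. Hnrnpa3 has the highest bar, with 55 positions, and Hnrnpa1, Hnrnpd and Hnrnpf have no position that is absent from all KO lists.

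Among the A/B family, Hnrnpa1, which shuttles between nucleus and cytoplasm and represses splice sites, had 27 positions in WT and 29 in KO, and its KO lists held all 27. Hnrnpa3, a close relative, had the most positions, 48 in WT and 45 in KO, of which 38 were shared (79.2%, 65.7% to 88.3%). Hnrnpab had 23 in WT and 18 in KO, and each of the 18 was also in WT. Hnrnpd, known as AUF1 for its binding to AU-rich elements of unstable mRNAs, had 11 in WT and 15 in KO, and all 11 returned. That none was lost in Hnrnpa1 and Hnrnpd holds only when the KO list of any tool counts. Within the same tool, Hnrnpd lost its WT positions of MINES (1), m6Anet (2), Epinano (1) and xPore (1), and Hnrnpa1 lost 4 of 5 of Epinano, 2 of 4 of m6Anet, 1 of 2 of MINES and the only one of xPore.

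Hnrnpf and Hnrnph1 encode related proteins that bind G-rich RNA and regulate splicing. Hnrnpf had 29 positions in WT and 30 in KO, with all 29 shared when any tool counted, although Epinano repeated 1 of its 6. Hnrnph1 had 25 and 24, with 21 shared (84.0%, 65.3% to 93.6%). Hnrnpk, whose KH domains bind C-rich RNA, had 36 in WT and 29 in KO, and every KO position was also a WT position. Hnrnpl, which binds CA repeats, had 20 and 13, with 12 shared, and its share of 60% (38.7% to 78.1%) was the lowest of the 10 genes. Hnrnpm, a splicing regulator, had 12 and 11 with 9 shared, and Hnrnpu, the scaffold attachment factor A that also binds chromatin, had 38 and 34 with 29 shared (76.3%, 60.8% to 87.0%). The interval of Hnrnpl overlapped those of all other genes of the set except Hnrnpa1 (from 87.5%) and Hnrnpf (from 88.3%).

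Of the 3063 genes with at least 20 listed positions, 8 were hnRNP genes of the set, all but Hnrnpd and Hnrnpm. The median share of WT positions found in a KO list was 63.2% over these genes, with quartiles of 47.8% and 76.5%, and 79.9% over the 8. All of the 8 except Hnrnpl lay above the overall median. Hnrnpa1 and Hnrnpf, at 100%, exceeded 97.2% of the genes, while Hnrnpl exceeded 44.0%.

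Tool by tool, the WT positions of the 10 genes came back in KO at very different rates. Nanom6A listed 190 positions in WT and 197 in KO and repeated 90.5% of the former (85.5% to 93.9%), against 65.4% of its WT positions over all genes. Tombo listed 106 and 94 and repeated 79.2% (70.6% to 85.9%), against 59.7%. For m6Anet the numbers were 64 and 42, with 51.6% repeated (39.6% to 63.4%), against 34.4%. Each of these intervals lay above the value over all genes. Without positions whose 21-nt window also occurs in another gene, a choice made after seeing the data, the share of m6Anet was 44.4% (30.9% to 58.8%), an interval that includes 34.4%.

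Epinano, which reads base-calling errors, listed 51 positions in WT and 21 in KO and repeated 29.4% (18.7% to 43.0%), against 16.5% over all genes, which lay below the interval. ELIGOS listed 17 and 5 and repeated 4, or 23.5% (9.56% to 47.3%), against 11.5%. MINES listed 13 and 10 and repeated 6, or 46.2% (23.2% to 70.9%), against 40.2%. The WT list of xPore held 15 positions and its KO list 8, with 5 in both, or 33.3% (15.2% to 58.3%), against 24.9%. For the latter 3 tools the interval included the value over all genes, but that of ELIGOS without Hnrnpa3 (30.8%, 12.7% to 57.6%) did not.

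**Figure D2:**
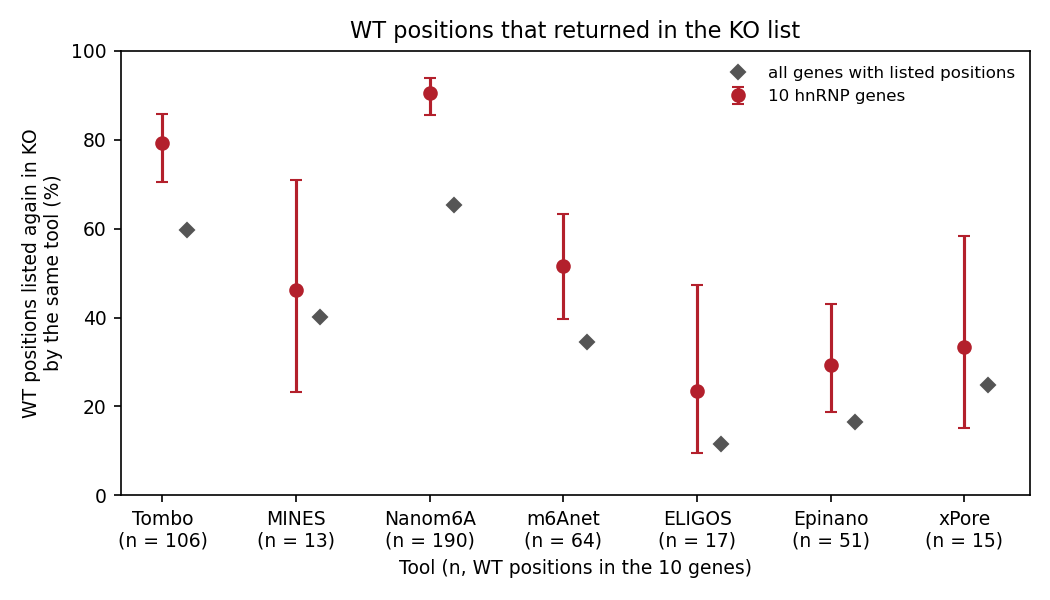
Share of WT positions listed again in KO by the same tool (vertical axis, percent) for the 7 tools with both lists (horizontal axis). Circles are the 10 hnRNP genes with 95% Wilson intervals and diamonds are all genes with listed positions. The circle lies above the diamond for every tool, and for MINES, ELIGOS and xPore the interval includes the diamond.

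The ratio of KO to WT positions was 1.04 for Nanom6A (0.845 to 1.27), 0.887 for Tombo (0.665 to 1.18) and 0.769 for MINES (0.302 to 1.9), and all of these intervals included equal numbers. For xPore it was 0.533 (0.196 to 1.34). The intervals lay below equal numbers for m6Anet, at 0.656 (0.434 to 0.984), Epinano, at 0.412 (0.235 to 0.697), and ELIGOS, at 0.294 (0.0848 to 0.831). Without Hnrnpa3, the gene with most positions, the intervals of m6Anet (0.642, 0.404 to 1.01) and ELIGOS (0.385, 0.107 to 1.15) included equal numbers, and that of Epinano (0.271 to 0.852) did not. Without positions with a 21-nt copy, that of ELIGOS did so too (0.364, 0.0844 to 1.23). Over all genes, Nanom6A had a ratio of 0.831, below the interval of the hnRNP genes, and the ratios of the other 6 tools lay within theirs. Without Hnrnpa3 (1, 0.802 to 1.25) or without positions with a 21-nt copy (1.06, 0.819 to 1.37), the interval of Nanom6A included 0.831 as well. The WT list of Epinano was longer than its KO list in each of the 10 genes, and that of m6Anet in 9, the exception being Hnrnpab with 2 in WT and 3 in KO.

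Nanom6A differed between the genes. In Hnrnpa1, Hnrnpa3, Hnrnpd, Hnrnpf and Hnrnph1 it listed every WT position again. It added 3 positions in KO for Hnrnpa1, 7 for Hnrnpa3, 5 for Hnrnpd and 3 for Hnrnph1. In Hnrnpk it listed 28 positions in WT and 20 in KO, and in Hnrnpab 22 and 17, with no position added. The others both lost and gained positions: 1 lost and 5 added in Hnrnpu, and 2 lost and 1 added in each of Hnrnpl and Hnrnpm. Since a list depends on the reads available in its library, and these are unknown for each gene, the part of depth in these differences was not tested.

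Of the 25 positions in KO lists only, 24 were listed by a single tool, and Nanom6A gave 18 and Tombo 5. The exception was a GAACA of Hnrnpa1 at 103246547 on chromosome 15, named after its values were seen, which Nanom6A and Epinano listed. Of the 46 positions in a WT list and no KO list, 37 were listed by 1 tool and 9 by 2, and none by more. Tombo listed 15 of the 46, Nanom6A 12, and m6Anet and Epinano 11 each. The tools behind such positions were not counted over all genes, so none of these numbers is known to be particular to the hnRNP genes.

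Support in WT or the comparison was counted as the number of the 10 tools. Of the 269 positions, 150 (55.8%) had 1 tool, against 65.3% of all such positions on genes. A further 73 had 2 (27.1%, against 22.2%) and 30 had 3 (11.2%, against 7.07%). Nanom6A alone accounted for 83 of the 150 and Tombo for 36. At least 4 tools listed 16 positions and at least 6 tools 5, and no position was listed by all 10. The shares were 1.86% for 4 tools, 2.23% for 5, 0.743% for 7, and 0.372% each for 6, 8 and 9. Over all genes they were 2.22%, 1.3%, 0.825%, 0.522%, 0.37% and 0.214% for 4 to 9 tools, and 0.0481% for 10. The highest numbers were 9 tools in Hnrnpa1, 8 in Hnrnpf and 7 in Hnrnpa3, then 5 in Hnrnpk and Hnrnpm, 4 in Hnrnph1 and Hnrnpu, and 3 in Hnrnpab, Hnrnpd and Hnrnpl.

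A position with more tools has more KO lists that can hold it again, so its share in KO can rise with support by the way it is counted, and nothing is drawn from such a rise. All 46 positions with at least 3 tools were in a KO list, against 73.7% of such positions over all genes, whereas 87.7% of those with 2 tools and 75.3% of those with 1 tool were. Over all genes the shares were 69.0% for 2 tools and 52.8% for 1. With the KO lists of Tombo and Nanom6A set aside, a choice made after seeing the data, 35 of the 46 (76.1%, 62.1% to 86.1%) were in a KO list, 20 of the 73 with 2 tools (27.4%) and 19 of the 150 with 1 tool (12.7%). Over all genes these shares were 45.5%, 30.3% and 13.4%.

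The comparison lists, which hold positions that differed between WT and KO, named few positions in these genes. Nanocompore listed 9, DiffErr 5 and DRUMMER 3, which made 11 different positions, or 3.74% of the 294 (2.10% to 6.57%), against 1.97% of all listed positions on genes. They lay in 4 of the 10 genes: 6 in Hnrnpf, 2 each in Hnrnpa1 and Hnrnpab, and 1 in Hnrnpa3. Without Hnrnpf, 5 of 264 remained (1.89%, 0.812% to 4.36%), a share near that over all genes. Among the 3063 genes with at least 20 listed positions, 26.3% had a comparison position. The 4 genes all belong to the 8 of the set with at least 20 positions. Hnrnpd, Hnrnph1, Hnrnpk, Hnrnpl, Hnrnpm and Hnrnpu had none.

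All 11 comparison positions were in the WT list and in the KO list of Nanom6A. The KO list of m6Anet held 6 of them and that of Tombo 4. The KO lists of MINES, ELIGOS, Epinano and xPore held 0 of the 11, while their WT lists held 2, 3, 4 and 5 in this order. Each of the 11 positions differed between the libraries by a comparison tool and was still listed in KO by another tool. The lists carry no rate from which a partial loss could be read.

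A single position of the 294 was in all 3 comparison lists, against 519 of the 160384 listed positions over all genes. It is a GGACT of Hnrnpa1 on the plus strand of chromosome 15 at 103244417 (GRCm38), in the 3′ UTR in exon 11, 178 nt after the first base of the stop codon. It was listed in WT by Epinano, m6Anet, MINES, Nanom6A, Tombo and xPore, and in KO by m6Anet, Nanom6A and Tombo. The best supported position of Hnrnpa3 lies at a like place, 191 nt after the stop codon, at 75665571 on the plus strand of chromosome 2. It was listed in WT by Tombo, Nanom6A, m6Anet, ELIGOS and Epinano, in the comparison by DiffErr and DRUMMER, and in KO by Nanom6A and m6Anet. The 21 nt around the position of Hnrnpa3 also occur in Gm5641 and Gm6793. These positions are shown with 10 nt on either side, the listed 5-mer in capitals, because they are the only 3′ UTR positions of the 10 genes in a comparison list. The windows are chr15:103244407-103244427 and chr2:75665561-75665581. The position of Hnrnpa3, like others named below for comparison lists or for most tools, was chosen after its values were seen.
Hnrnpa1 3′ UTR: aaactccaGGACTgtatttgt
Hnrnpa3 3′ UTR: cttgttcaGGACTgtcatagc

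In Hnrnpf, 5 of the 6 comparison positions lay in the coding sequence, all of it in exon 3 of 3, an exon of 1914 nt. The GGACT at codon 117 (chromosome 6, plus strand, 117924107) had the most tools: Tombo, Nanom6A, m6Anet, ELIGOS, Epinano and xPore in WT, Nanocompore and DiffErr in the comparison, and Tombo, Nanom6A and m6Anet in KO. The GGACA at codon 348 (117924799) was listed by 7 tools, among them DiffErr and DRUMMER, and the GGACA at codon 79 (117923993) by 6, among them Nanocompore and DiffErr. The GAACT at codon 358 (117924830) had 5 tools and that at codon 60 (117923936) had 3, with Nanocompore as the only comparison tool of each. The sixth, a GGACT at 117906818, lies outside the transcript used for placement, in an exon of the coding transcripts Hnrnpf-201 and Hnrnpf-207.

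The related pair Hnrnpf and Hnrnph1 allowed the same codons to be set side by side. The proteins translated from the annotated transcripts were identical at 321 of 414 aligned residues (77.5%), and 7 RRACH adenosines fell at the same codon and frame. Of these 7, 6 were listed in both genes and 1 in Hnrnpf only. The GGACA of codon 79 had 6 tools in Hnrnpf and 4 in Hnrnph1 (Tombo, MINES, Nanom6A and m6Anet), and the GGACT of codon 117 had 8 in Hnrnpf and 3 in Hnrnph1 (Tombo, Nanom6A and m6Anet). No comparison tool listed a position in Hnrnph1, whose coding sequence is spread over 12 exons, the longest of 179 nt. At codon 60, a GAACT that 3 tools supported in Hnrnpf was listed in Hnrnph1 only by Nanom6A in KO, and so was the GAACT of codon 378, which is aligned with codon 358 of Hnrnpf and its 5 tools. At these 4 codons the same 5-mer was in a comparison list in Hnrnpf and not in Hnrnph1, and the sequences of codons 79 and 117 are shown because WT lists held them in both genes. They come from chr6:117923983-117924003 and chr6:117924097-117924117 in Hnrnpf and from chr11:50379597-50379617 and chr11:50379908-50379928 in Hnrnph1, all on the plus strand.
Hnrnpf codon 79: aaagcatgGGACAccggtata
Hnrnph1 codon 79: aaactatgGGACAcagatatg
Hnrnpf codon 117: ggcttcggGGACTcccatttg
Hnrnph1 codon 117: ggcttagaGGACTcccttttg

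Hnrnpa1 and Hnrnpa3 were identical at 285 of 349 aligned residues (81.7%) and shared 6 RRACH adenosines by codon and frame, of which 5 were listed in both and 1 in Hnrnpa1 only. None of the 5 was in a comparison list. At the aligned codons 271 of both genes, the GGACA of Hnrnpa1 was listed by Tombo, MINES and Nanom6A in WT and again in KO, and the GGACC of Hnrnpa3 by Nanom6A in both libraries. Hnrnpab and Hnrnpd were identical at 69.1% of the aligned residues and shared no RRACH adenosine by codon and frame.

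The other comparison positions had fewer tools. In Hnrnpa1, an AGACT at codon 42 (103241189) was listed by Nanocompore and by Nanom6A in WT and KO. In Hnrnpab, on the minus strand of chromosome 11, Nanocompore listed an AGACT at codon 90 (51605585) and a GAACA at codon 197 (51604494). Nanom6A had both in WT and KO, and xPore had the latter in WT.

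Of the 11 comparison positions, 4 were GGACT, 2 were GGACA and 2 were AGACT. With GGACC, these are the 5-mers that MINES reports by default, and they made up 8 of the 11 (72.7%, 43.4% to 90.3%), against 25.5% of all listed positions of these genes and 24.6% of their RRACH adenosines. The same share among the comparison positions of all genes was not counted, so it is not known to be particular to these genes. Of the 15 WT positions at a GGACT, 9 were in a KO list (60%, 35.7% to 80.2%), against 52.7% over all genes. The other 11 5-mers ranged from 76.2% for AAACC, which this interval includes, to 92.0% for GAACA. Over all genes GGACC had the lowest share, 44.6%. Of the 25 positions listed in KO only, 0 were a GGACT (0% to 13.3%), an interval that includes the 5.1% of all listed positions of these genes.

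The coding transcripts of the 10 genes hold 517 RRACH adenosines, and 285 of them (55.1%, 50.8% to 59.4%) were in a list. The share ran from 19.0% in Hnrnpd (15 of 79) to all 26 in Hnrnpa1. It was 88.5% in Hnrnpab, 76.9% in Hnrnpf, 76.6% in Hnrnpk, 72.2% in Hnrnph1, 69.6% in Hnrnpa3, 52.6% in Hnrnpl, 38.8% in Hnrnpu and 31.8% in Hnrnpm. In the genes near the top of this order, being listed separated few adenosines of the motif from the rest. The share of RRACH adenosines listed was not counted over all genes.

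Some of the transcripts had long ends with no listed position. On the transcript with most listed positions, Hnrnpd had a position at each of its 15 RRACH adenosines from the first listed to the last, 106 nt after the stop codon, and none at the 64 in the 5325 nt that follow. Other coding transcripts of Hnrnpd are annotated with 3′ UTRs of 362, 366 and 766 nt, against 5429 nt for the one used. Hnrnpu likewise had its last position 1191 nt after the stop codon, with 51 RRACH adenosines and 3822 nt beyond it. In Hnrnpa3, by contrast, positions reached 3905 nt after the stop codon in a 3′ UTR of 4025 nt. At the 5′ end, Hnrnpm had no listed position at its first 20 RRACH adenosines and Hnrnpl none at its first 12. Between the first and the last listed position, the share of RRACH adenosines listed was 63.6% in Hnrnpm, 69.2% in Hnrnpa3, 76.9% in Hnrnpl and in Hnrnpu, and higher in the other genes, up to 100%. The listed positions set these limits, so this share cannot be lower than that of the same transcript with its ends. Whether these ends were transcribed and read in the cells cannot be told from the lists.

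**Figure D3:**
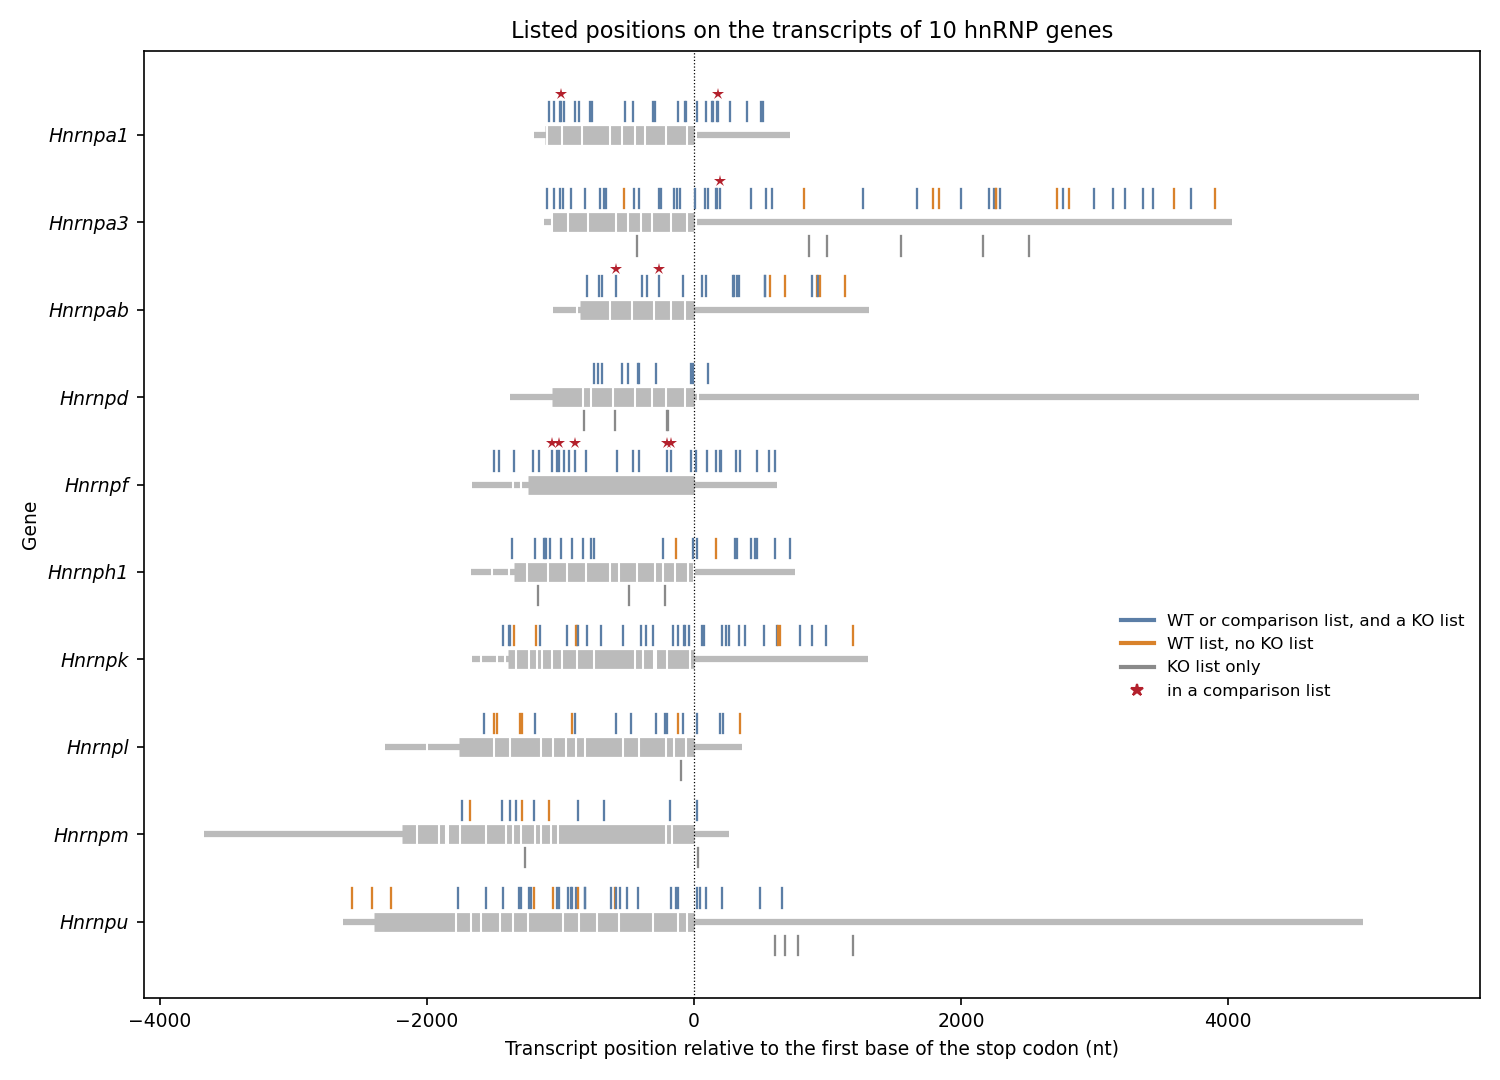
Listed positions on 1 transcript per gene (vertical axis), by transcript position relative to the first base of the stop codon (horizontal axis, nt). Thick grey bars are coding sequence, thin bars UTRs and white lines exon junctions. Marks above the bar are positions in a WT or comparison list, blue if also in a KO list and orange if not, grey marks below are in KO lists only, and stars mark the 10 comparison positions on these transcripts. The 5 stars of Hnrnpf lie in its single coding exon, and the distal 3′ UTRs of Hnrnpd and Hnrnpu are empty.

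Placed on these transcripts, 282 of the 294 positions fell 8 in the 5′ UTR, 162 in the coding sequence (57.4%, 51.6% to 63.1%) and 112 in the 3′ UTR (39.7%, 34.2% to 45.5%). The RRACH adenosines of the same transcripts lay 39.2% in the coding sequence and 52.2% in the 3′ UTR. Every coding RRACH adenosine was listed in Hnrnpa1 (16), Hnrnpab (8), Hnrnpd (14) and Hnrnpf (15). In Hnrnpu, 77.8% of the coding and 15.4% of the 3′ UTR adenosines were listed, and in Hnrnpd 1.54% of those in the 3′ UTR.

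A window of 200 nt on either side of the stop codon held 58 of the 282 positions (20.6%, 16.3% to 25.7%), against 60 of 498 RRACH adenosines (12%, 9.48% to 15.2%). Of the 344 RRACH adenosines between the first and the last listed position of each gene, a background chosen after seeing the data, 17.4% lay in the window (13.8% to 21.8%), which is inside the interval of the listed positions. The listed positions set the limits of this background, which leaves out only unlisted adenosines. It therefore cannot decide whether listed positions gather near the stop codon. The share was 20.6% for WT positions and 22.8% for KO positions. Positions in both WT and KO had 23.1% in this window (18% to 29.1%), and those in WT and no KO list had 7.32% (2.52% to 19.4%), or 3 of 41. These intervals overlapped, and most positions of both kinds lay outside the window. Nearly every RRACH adenosine of the window was listed.

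The places of the positions absent from KO differed between the genes, and in some of them also from those of the shared positions. In Hnrnpa3, 9 of 10 were in the 3′ UTR, from 826 to 3905 nt after the stop codon, where 13 of the 38 shared and 5 of the 7 KO-only positions also lay more than 800 nt after it. In Hnrnpab all 5 were in the 3′ UTR, as were 10 of the 18 shared positions. In Hnrnpl 6 of 8, and in Hnrnpm all 3, were coding, as were 9 of 12 and 8 of 9 shared positions. In Hnrnpu 2 of 9 lay in the 5′ UTR, both listed by m6Anet alone, and 5 were coding, as were 23 of the 29 shared positions. The 3′ UTR of Hnrnpu held 0 of the 9 and 6 of the 29. In Hnrnpk 4 were coding and 3 in the 3′ UTR, against 16 and 12 of its shared positions. Hnrnph1 had 1 in each of these regions and 2 outside the transcript, against 12, 8 and 0 shared.

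The position of each gene with most tools in WT and none in KO had 2 tools in each of the 7 genes that had one, with ties in Hnrnph1 and Hnrnpu settled by the 5′ end. In Hnrnpa3 it was a GGACA 1837 nt after the stop codon (75667217), listed by m6Anet and ELIGOS. In Hnrnpab it was an AGACC 683 nt after the stop codon (51600727), by Tombo and Nanom6A. In Hnrnph1 it was a GGACA at 50382525, by Tombo and MINES, which lies in annotated noncoding transcripts of the gene only. Nanom6A and Epinano gave the AAACA at codon 173 of Hnrnpk (58395292) and the AAACT at codon 152 of Hnrnpl (28813931). Tombo and m6Anet gave the GGACT at codon 299 of Hnrnpm (33660310), and Tombo and MINES the GGACA at codon 401 of Hnrnpu (178332312). None of the 7 was in a comparison list.

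Other positions were listed in both libraries by several of the same tools. The highest number was 4 tools, at 2 positions of Hnrnpk. Tombo, MINES, Nanom6A and m6Anet listed the GGACA at 58392066 in the 3′ UTR in both libraries. The other, named by the rule as the nearer to the 5′ end, was the GAACC of codon 425 (chromosome 13, minus strand, 58393282), which Tombo, Nanom6A, m6Anet and Epinano listed in WT and in KO, with ELIGOS in WT. In Hnrnpu the GGACC of codon 459 (178332139) was listed by Nanom6A, ELIGOS and Epinano in both libraries. In Hnrnpl the GGACA of codon 289 (28815348) was listed by Tombo, MINES and Nanom6A in both. Tombo, Nanom6A and m6Anet listed a GAACT of Hnrnpa3 in both, in the 5′ UTR at transcript position 19 (75659285), and this base lies also in Gm24574, annotated as a miRNA gene on the same strand. In Hnrnpab (GGACC, codon 49), Hnrnpd (AGACT, codon 125) and Hnrnpm (GAACA, codon 251), 2 tools listed the position in both libraries.
The positions of Hnrnpk and Hnrnpu are shown, as examples of positions that kept 4 and 3 tools in KO, with 10 nt on either side. They lie at chr13:58393272-58393292 and chr1:178332129-178332149 on the minus strand.
Hnrnpk codon 425: aaattgatGAACCtttagaag
Hnrnpu codon 459: cccttagaGGACCgagttaga

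Hnrnpm gave the reverse at a position chosen after its values were seen. The GGACC of codon 441 (33650247), in exon 14 of 803 nt, was listed in WT by Nanom6A, m6Anet, ELIGOS, Epinano and xPore, and in KO by xPore only. It was in no comparison list.

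The exons that hold the positions were described after the values were seen. The 10 comparison positions on the placement transcripts lay in exons with a median length of 1914 nt and at a median of 202 nt from the nearest exon junction. The medians were 264 nt and 74.5 nt for all 282 listed positions and 1335 nt and 370 nt for all RRACH adenosines. Those 10 include 5 from the single long exon of Hnrnpf. The 16 positions with at least 4 tools had a median exon length of 1335 nt, which is the length of the last exon of Hnrnpk.

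Hnrnpa1 also had listed positions in alternative transcripts. Of its 29 positions, 13 were named on Hnrnpa1-204, a transcript annotated for nonsense-mediated decay. As many, 13, were named on the coding transcript Hnrnpa1-201, and a base can be named on several transcripts. Only 3 lay outside the transcript used for placement, in an exon of Hnrnpa1-203 and Hnrnpa1-204. All of these 3 were in KO lists and 1 of them was in WT.

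Reads may be shared between genes that hold the same sequence, as processed pseudogenes of several hnRNP genes do. A 21-nt window found in another gene need not be a pseudogene copy. For 82 of the 294 positions (27.9%), the 21 nt around the position also occur in a transcript of another annotated gene: 25 in Hnrnpa3, 19 in Hnrnpk, 15 each in Hnrnpa1 and Hnrnpf, 3 in Hnrnpab, 2 each in Hnrnpd and Hnrnph1, and 1 in Hnrnpl. Hnrnpm and Hnrnpu had 0. The other genes with such a window had 0 listed positions of their own in the case of Hnrnpa1, Hnrnpd, Hnrnpf, Hnrnph1, Hnrnpk and Hnrnpl. The 48 other genes of Hnrnpa3 had 40 listed positions and the 219 of Hnrnpab had 1978. With 101 nt, 56 of the 278 positions that allowed it had a copy, and 0 of the 23 in Hnrnpab. The 21-nt matches of Hnrnpab were thus short ones. For the Hnrnpa3 position at 75659285, the other gene is Gm24574, which covers the same base, so this window is not a second copy. When positions with a 21-nt copy were left out, a choice made after seeing the data, 4 of 212 were comparison positions (1.89%, 0.736% to 4.75%). The 7 left out were the codons 60, 79, 117, 348 and 358 of Hnrnpf, codon 42 of Hnrnpa1 and the 3′ UTR position of Hnrnpa3, and the GGACT of Hnrnpa1 in all 3 comparison lists had no copy. The part of shared reads in the lists was not tested.

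The same counts were made in other hnRNP and splicing genes. Of 17 further hnRNP genes, 16 had listed positions, Rbmx being the exception, and 77.8% of their 306 WT positions were in a KO list (72.8% to 82.1%), against 82.9% in the 10 genes. For 10 SR splicing factors it was 71.4% of 213 (65.0% to 77.0%). Both intervals lay below 82.9%, and that of the further hnRNP genes overlapped the interval of the 10 genes. Comparison positions numbered 9 in the further hnRNP genes (2.44%, 1.29% to 4.57%), of which 7 were in Pcbp1, whose 11 WT positions were all in KO lists. The SR factors had 6 (2.48%, 1.14% to 5.30%). Nanom6A repeated 82.4% of its WT positions in the further hnRNP genes (75.5% to 87.6%) and 76.3% in the SR factors (66.8% to 83.8%), against 90.5% in the 10 genes. MINES repeated 67.9% and 63.6%, against 46.2%, m6Anet 53.3% and 22.6%, against 51.6%, ELIGOS 40.7% and 14.3%, against 23.5%, and xPore 27.3% and 80%, against 33.3%. Tombo (75.6% and 73.8%) and Epinano (26.2% and 21.3%) were lower in both lists of genes than in the 10. Only for Nanom6A in the SR factors did the interval not overlap that of the 10 genes.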

How the data were processed

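Per the labels and the methods of the study, the authors sequenced poly(A) RNA of 1 WT and 1 Mettl3 KO culture by DRS, aligned the reads to the mouse transcriptome, ran each tool and converted positions to the genome (mm10, which is GRCm38). The deposited lists give only positions, strands and transcript or gene names. The cut-off behind each list was not given with it. A position was counted here once per genome base and strand, and was assigned to a gene by overlap with its exons in GENCODE M21, a later release than the authors used. The transcript used for placement was the coding one with most listed positions, ties going to the longest coding sequence. Shares have 95% Wilson intervals, and ratios have intervals from the exact binomial interval of KO positions among both lists, which treats the lists as independent. Pairs of proteins, translated from the annotated coding sequences, were aligned globally. Sequences were read from the GRCm38 genome of RefSeq.

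For each gene were named the position with most tools in WT or the comparison and none in KO, the position listed in both libraries by most tools, and every position in all 3 comparison lists, with ties going to more comparison lists and then to the 5′ end. The genes and the gene lists were chosen with earlier results of these data known. The scripts were tested on simulated lists. Computations used Python 3.11.15, numpy 2.4.6, scipy 1.17.1, pysam 0.24.0, Biopython 1.88 and matplotlib 3.10.9.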

Additional observations from a re-analysis of the deposited data

How the results depend on the processing

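Of 109 values under alternative settings, 87 stayed within 1.5 times the count or within the interval of the main value. A reversal could be scored only for KO to WT ratios whose main interval left out equal numbers. These were the ratios of m6Anet, ELIGOS and Epinano, and none of them rose above equal numbers. Counts and shares were not examined for reversal. The share of MINES, 46.2% against 40.2% over all genes, was just below the latter without Hnrnpa3 (40%), and both intervals included 40.2%. Among the 87, the KO to WT ratios of m6Anet (0.642) and ELIGOS (0.385) without Hnrnpa3, and of ELIGOS (0.364) without 21-nt copies, had intervals that included equal numbers. In the same way the ratio of Nanom6A without Hnrnpa3 (1) or without copies (1.06), and the share of m6Anet without copies (44.4%), no longer differed from all genes by their intervals. Counting each line of a list, since a base on several transcripts takes several lines, gave 1329 entries in all, 725 in WT and 580 in KO. Taking the KO list of any tool raised the share listed again to 84.6% for MINES, 82.8% for m6Anet, 82.4% for ELIGOS, 78.4% for Epinano and 93.3% for xPore. The 11 comparison positions became 1 when all 3 lists were required, 5 without Hnrnpf and 4 without positions whose 21-nt window occurs in another gene (1.89% of positions in both cases). The comparison share over all genes, 1.97%, was 2.09% over all genes with at least 20 listed positions. Near the stop codon, 100 nt gave 10.3% of positions against 6.22% of RRACH adenosines, and 400 nt gave 32.6% against 20.1%. Only RRACH adenosines between the first and the last listed position gave 17.4% at 200 nt. Of the positions with at least 3, 2 and 1 tools, 76.1%, 27.4% and 12.7% were in a KO list without Tombo and Nanom6A. The last 2 of these settings and the 21-nt windows were chosen after seeing the data. With 1 library per condition and no read numbers, differences between libraries and between depths cannot be told apart from differences in m6A. No paired analysis was possible because each condition had 1 library and no test was run.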
